A study of Mus musculus with 9 samples.

Results

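The 7 genes described here make and load major histocompatibility complex (MHC) class II molecules: H2-Eb1, H2-Ab1, H2-Aa, Cd74, Ciita, H2-DMa and H2-DMb1. They were chosen by gene symbol as rows of the count table with the differences between the groups of these same libraries already known, among them the lower H2-Eb1 level in old cells. Which other measured values guided the choice is not recorded, so the log2 fold changes of the members in all 3 comparisons are given as a description: no p-value is printed for a member, and counts of members past a threshold support nothing. The table held 23317 genes, of which 14227 passed a filter on low counts. All 7 members were in the table and all 7 passed that filter.

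The cells were hematopoietic stem cells (HSCs), the bone marrow cells from which blood lineages arise, of wild-type mice in 3 groups of 3 libraries. The first group was old HSCs treated with ABC294640, which the submitters name as a specific inhibitor of SphK2, a kinase of sphingolipid metabolism. Whether cells or mice were treated is not stated. The second was HSCs of old mice and the third HSCs of young mice. Ages of 20 to 24 months and 2 to 4 months were assigned to the old and the young groups from the wording of the protocol. Each library came from 1500 sorted cells and 12 cycles of PCR on cDNA from polyadenylated RNA. The sources used here state neither the mouse strain nor the sort markers, and they state no dose, route or duration for ABC294640. Nothing in the labels ties the replicates to separate mice, so errors and p-values measure the spread between these libraries, which may be technical.

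Library totals ran from 16663445 to 23254115 counts, and the young libraries had more genes detected (20158 to 20285) than the other 6 (18227 to 19182). All 14 HSC and progenitor markers looked at were detected and tested, but their levels were not alike between the ages. In old against young HSCs 8 were lower and 2 higher (adjusted p under 0.05), beside 19.8% and 19.6% of all tested genes. The receptor gene Kit was not among those 10. It averaged 116.8 CPM (counts scaled to a fixed library size, with TMM factors) in treated old HSCs, 113.4 in old HSCs and 118.6 in young HSCs. Fgd5 was the lowest of the 14, at 0.450 CPM in treated old, 0.647 CPM in old and 1.27 CPM in young HSCs. Detection of these markers does not show how pure the sorted cells were. The Y-linked gene Ddx3y measured 32.3 to 43.1 CPM in treated old and 35.9 to 44.7 CPM in old libraries, against 0.664 to 1.18 CPM in young libraries. Age and the apparent sex of the mice therefore cannot be told apart in any comparison with young HSCs below.

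MHC class II molecules are pairs of an alpha and a beta chain that present peptides from endosomes to CD4+ T cells. Dendritic cells, B cells and macrophages are the classical class II cells, and mouse HSCs and progenitors are also known to carry class II at their surface. The coactivator Ciita binds no DNA itself and switches the class II genes on from factors assembled at the X and Y boxes of their promoters. The invariant chain, encoded by Cd74, guides new class II dimers to endosomes, and the H2-DM dimer then exchanges the remnant of the invariant chain for peptide.

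Class II promoters are known for these boxes, and 4 windows are shown because the boxes are where the members share their regulator. RefSeq promoter windows of GRCm38.p6, from 250 bases before to 50 bases after the annotated start, were at hand for 4 of the 7 members: H2-Eb1, H2-Aa, H2-DMb1 and H2-DMa. H2-Ab1, Cd74 and Ciita are named only. An X box core written CTNGNAAC and a Y box core written TGATTGG were searched on both strands, with letters chosen after reading the windows of H2-DMb1, H2-Aa and H2-Eb1. The windows below run 5′ to 3′ in the direction of transcription, and capitals mark the X core followed by the Y core. They lie at chr17:34305617-34305916 on the plus strand (H2-Eb1), chr17:34287774-34288073 on the minus strand (H2-Aa) and chr17:34152941-34153240 on the plus strand (H2-DMb1). The window of H2-Ob, a class II gene of the same region that is no member, lies at chr17:34238655-34238954 on the plus strand.
H2-Eb1: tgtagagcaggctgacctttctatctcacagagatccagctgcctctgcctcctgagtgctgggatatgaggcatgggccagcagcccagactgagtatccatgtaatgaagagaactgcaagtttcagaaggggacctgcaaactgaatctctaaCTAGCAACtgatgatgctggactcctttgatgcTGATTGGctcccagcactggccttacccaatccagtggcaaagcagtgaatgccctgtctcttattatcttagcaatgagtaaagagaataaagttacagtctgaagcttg
H2-Aa: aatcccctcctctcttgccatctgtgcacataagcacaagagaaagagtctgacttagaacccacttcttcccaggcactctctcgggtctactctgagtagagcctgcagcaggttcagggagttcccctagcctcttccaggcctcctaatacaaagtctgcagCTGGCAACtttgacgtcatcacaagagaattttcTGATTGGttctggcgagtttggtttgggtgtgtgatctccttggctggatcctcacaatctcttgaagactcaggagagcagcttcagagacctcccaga
H2-DMb1: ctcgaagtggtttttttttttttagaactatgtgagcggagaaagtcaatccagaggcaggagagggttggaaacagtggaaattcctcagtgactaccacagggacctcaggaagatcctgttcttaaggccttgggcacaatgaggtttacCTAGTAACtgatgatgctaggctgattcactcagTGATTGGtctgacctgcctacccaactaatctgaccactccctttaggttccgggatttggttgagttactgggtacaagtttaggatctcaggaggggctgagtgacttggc
H2-Ob: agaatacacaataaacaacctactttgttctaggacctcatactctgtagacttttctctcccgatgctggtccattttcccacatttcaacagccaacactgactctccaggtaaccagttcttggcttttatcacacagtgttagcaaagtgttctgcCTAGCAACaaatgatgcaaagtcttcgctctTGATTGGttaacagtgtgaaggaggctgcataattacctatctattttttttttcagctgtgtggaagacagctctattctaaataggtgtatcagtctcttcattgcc

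In these 4 windows the X core began 97 (H2-DMb1), 94 (H2-Eb1), 90 (H2-Ob) and 84 (H2-Aa) bases before the start. The Y core followed on the same strand after a gap of 26 bases in H2-DMb1 and H2-Aa, 25 bases in H2-Eb1 and 23 bases in H2-Ob. Among 32851 RefSeq promoter windows of the same length, 13.2% held the X core, 7.82% held the Y core, and 28 windows (0.0852%) held an X core followed by a Y core on 1 strand within 30 bases. Those 28 included all 4 shown and also Rfx5, a gene for a subunit of the factor that binds the X box. Windows of the other class II genes H2-Oa, H2-DMb2 and H2-Eb2 were not among them. H2-Oa and H2-DMb2 held a Y core without an X core as written, and in H2-Eb2 the X core as written came after the Y core. Sequences with 1 letter changed were not counted. Such a sequence, ccagcaac, stands before the Y core in H2-Oa and H2-Eb2, and ctattaac does so in H2-DMb2. Absence of the core as written therefore does not show that the box is absent. Neither window of H2-DMa, at chr17:34122582-34122881 and chr17:34125268-34125567 on the plus strand, held either core. Neither lies at the start of its annotated locus (base 34119541), and the first spans the start of Brd2 on the other strand (base 34122634). Other possible starts of H2-DMa were not searched, so whether it has these cores elsewhere is not known here. The letters were read from 3 of the 4 windows, so their presence there is a description and not a finding.

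Ciita, the coactivator, was the member with the lowest level. Its locus lies on chromosome 16, bases 10480059 to 10528418 of GRCm38, plus strand (ENSMUSG00000022504), and overlaps Dexi on the other strand. Ciita measured 0.522, 0.739 and 1.03 CPM in the treated old libraries, 0.706, 0.909 and 0.918 CPM in the old libraries and 1.16, 1.72 and 2.35 CPM in the young libraries. Every young library lay above every treated and every untreated old library, by a narrow margin for young replicate 1. The counts behind these levels were 9, 12 and 20 in treated old, 12, 19 and 15 in old and 28, 35 and 51 in young libraries, so counting error alone is large. Its log2 fold change was -1.03 ± 0.34 (standard error, SE) in old against young HSCs, -1.16 ± 0.34 in treated old against young HSCs and -0.13 ± 0.39 in treated against untreated old HSCs. Without young replicate 3 the change in old against young HSCs was -0.74 and no longer past the threshold, and without old replicate 1 it was -0.91 and no longer past it. In treated old against young HSCs the call was likewise lost without young replicate 3 (-0.88) or without treated old replicate 1 (-0.94).

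The 3 chain genes lie together on chromosome 17. H2-Eb1, the beta chain of the E molecule (bases 34305867 to 34316674, plus strand, ENSMUSG00000060586), measured 18.8, 17.9 and 14.8 CPM in treated old, 13.4, 12.1 and 14.9 CPM in old and 53.2, 51.8 and 50.4 CPM in young libraries. All 6 old libraries, treated or not, were far below the young ones, while treated replicate 3 fell inside the range of the untreated old libraries. The level was 3.85-fold lower in old than in young HSCs, a log2 fold change of -1.95 ± 0.088 (SE). Of the 14227 tested genes 127 had a lower log2 fold change in that comparison, and 3022 had one lower than that of H2-DMa. H2-Eb1 was chosen with this difference known, so its rank is a description. The locus overlaps the antisense gene Gm20513, and no source states that strand was used in counting.

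H2-Aa encodes the alpha chain of the A molecule (bases 34282744 to 34287823, minus strand, ENSMUSG00000036594). It measured 21.5, 20.0 and 21.9 CPM in treated old, 21.9, 15.6 and 19.5 CPM in old and 58.4, 53.9 and 55.7 CPM in young libraries. Young libraries again stood clear of both old groups, whose ranges overlapped. H2-Aa was 2.95-fold lower in old than in young HSCs, a log2 fold change of -1.57 ± 0.089 (SE).

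H2-Ab1 encodes the beta chain that pairs with H2-Aa (bases 34257689 to 34269419, plus strand, ENSMUSG00000073421). Its levels were 63.0, 67.6 and 57.6 CPM in treated old, 63.8, 52.2 and 51.3 CPM in old and 134.3, 122.5 and 122.8 CPM in young libraries. The same order of groups held, with treated and untreated old libraries overlapping. The fold was smaller than for its partner: 2.27-fold lower in old than in young HSCs, a log2 fold change of -1.18 ± 0.073 (SE). Counts of H2-Aa per count of H2-Ab1 were 0.340 ± 0.042 in treated old, 0.341 ± 0.041 in old and 0.443 ± 0.0093 in young libraries (SD, n = 3 each). The highest library of either old group reached 0.381 and the lowest young library 0.435, so the 2 chains of the A molecule did not keep 1 ratio of counts between the ages. H2-Eb1 per H2-Ab1 was 0.273 in treated old, 0.244 in old and 0.410 in young HSCs.

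Cd74, the invariant chain, lies on chromosome 18, bases 60803848 to 60812652, plus strand (ENSMUSG00000024610) and overlaps the microRNA gene Mir5107. It measured 31.9, 38.4 and 31.3 CPM in treated old, 31.4, 30.9 and 33.8 CPM in old and 79.7, 71.0 and 69.2 CPM in young libraries. Its groups split as for the chains, with the lowest young library above the highest of the 6 others. Cd74 was 2.29-fold lower in old than in young HSCs, a log2 fold change of -1.20 ± 0.076 (SE). Counts of Cd74 per count of H2-Ab1 were 0.540 ± 0.031 in treated old, 0.581 ± 0.084 in old and 0.579 ± 0.015 in young libraries (SD, n = 3 each), with overlapping ranges in all 3 groups.

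**Figure D1:**
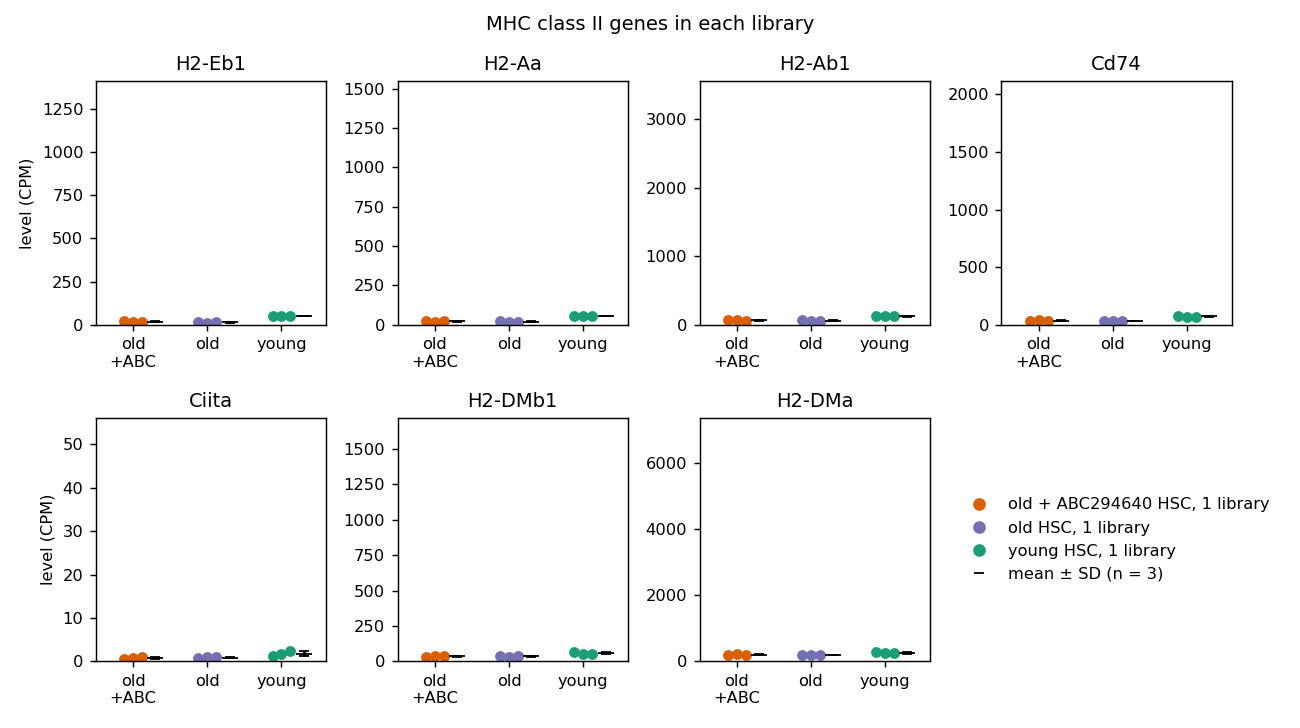
Levels of the 7 MHC class II genes in CPM on linear axes from 0, 1 panel per gene, with 1 point per library for treated old, old and young HSCs and bars at the mean ± SD (n = 3). In every panel the young libraries sit above all old libraries, with the largest fold for H2-Eb1, whose young libraries lie at 50.4 to 53.2 CPM, and treated and untreated old libraries lie close to each other.

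H2-DMa and H2-DMb1 encode the 2 chains of the peptide exchanger and were the members that differed least. H2-DMb1 (chromosome 17, bases 34153072 to 34160230, plus strand, ENSMUSG00000079547) measured 33.1, 39.3 and 35.7 CPM in treated old, 35.8, 32.7 and 37.6 CPM in old and 64.9, 51.2 and 53.3 CPM in young libraries. The lowest young library was above the highest old one, with a log2 fold change of -0.68 ± 0.085 (SE) in old against young HSCs. Of its 31-base words 31.4% also occur in other transcripts, mostly of its neighbour H2-DMb2, so its counts may be split between both genes.

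H2-DMa (chromosome 17, bases 34119541 to 34139101, plus strand, ENSMUSG00000037649) had the highest level, 204.8, 210.2 and 200.3 CPM in treated old, 194.0, 185.0 and 197.9 CPM in old and 277.4, 240.0 and 253.0 CPM in young libraries. It too separated by age and had the smallest log2 fold change of the 7, -0.42 ± 0.052 (SE) in old against young HSCs. Its annotated locus overlaps Brd2 on the other strand, which holds most of the 9.23% of its words found elsewhere. Per count of H2-Ab1, H2-DMa held 3.28 ± 0.18 counts in treated old, 3.48 ± 0.41 in old and 2.03 ± 0.060 in young libraries (SD, n = 3 each).

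All 7 members passed the threshold as lower in old than in young HSCs (edgeR's quasi-likelihood test, threshold an adjusted p of 0.05 with Benjamini-Hochberg over the 14227 genes), where 19.8% of all tested genes were lower and 19.6% higher. All 7 also had every old library below every young library, as did 25.6% of tested genes. Because the members were chosen with this contrast known, nothing is read from these counts. Their median log2 fold change was -1.18, beside -0.03 over all tested genes. Their summed level was 376.8 ± 16.0 CPM in treated old, 348.8 ± 16.98 CPM in old and 622.7 ± 40.9 CPM in young HSCs (SD, n = 3 each). In a library from pooled cells, fewer cells with class II RNA and less class II RNA per cell cannot be told apart.

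Levels were also set per length, as CPM per kilobase of the union of all annotated exons of a gene. That length was 3.798 kb for H2-Aa and 1.679 kb for Cd74, and it can exceed the length of the transcript present. The order between genes therefore depends on the annotation and is a description. In young HSCs the order was H2-DMa (74.5 ± 5.50), H2-Ab1 (49.3 ± 2.61), Cd74 (43.7 ± 3.35), H2-DMb1 (33.6 ± 4.39), H2-Eb1 (26.7 ± 0.709), H2-Aa (14.7 ± 0.596) and Ciita (0.183 ± 0.0623), as mean level ± SD over 3 libraries. In old HSCs it was H2-DMa (55.8 ± 1.91), H2-Ab1 (21.7 ± 2.71), H2-DMb1 (21.1 ± 1.48), Cd74 (19.1 ± 0.926), H2-Eb1 (6.93 ± 0.712), H2-Aa (5.00 ± 0.836) and Ciita (0.0886 ± 0.0126). Of neighbours in these orders, H2-Ab1 and Cd74 overlapped in their mean ± SD in young HSCs, and H2-Ab1, H2-DMb1 and Cd74 did so in old HSCs. Treated old HSCs had the order of old HSCs, with 59.5 ± 1.44 for H2-DMa, 24.4 ± 1.95 for H2-Ab1, 21.4 ± 1.84 for H2-DMb1, 20.2 ± 2.33 for Cd74, 8.82 ± 1.08 for H2-Eb1, 5.57 ± 0.266 for H2-Aa and 0.0800 ± 0.0266 for Ciita.

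The next comparison asks how the class II genes of old HSCs stood after the SphK2 inhibitor. None of the 7 members passed the threshold in treated against untreated old HSCs with edgeR's quasi-likelihood test, and none with DESeq2, where 1.19% of all tested genes did so with edgeR in either direction. At an unadjusted p under 0.05 the count was 2 of 7, beside 8.83% of all tested genes. The median log2 fold change of the members was 0.09, beside 0.00 over all tested genes. H2-Eb1 differed most, at 17.2 ± 2.09 CPM in treated old HSCs and 13.5 ± 1.39 CPM in old HSCs (SD, n = 3 each), a log2 fold change of 0.35 ± 0.097 (SE). It passed the threshold without the filter on low counts (log2 fold change 0.35) and without treated old replicate 3 (0.45). The log2 fold change was 0.17 ± 0.097 for H2-Aa, 0.17 ± 0.076 for H2-Ab1 and 0.09 ± 0.052 for H2-DMa. It was 0.08 ± 0.081 for Cd74 and 0.03 ± 0.089 for H2-DMb1, and below 0 for Ciita alone, at -0.13 ± 0.39. A p that misses the threshold does not show that these levels are equal.

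Treated old HSCs were below young HSCs. All 7 members passed the threshold as lower in treated old than in young HSCs, where 18.5% of tested genes were lower, and the median log2 fold change of the members was -1.12, beside -0.02 over all tested genes. H2-Eb1 was 3.02-fold lower (log2 fold change -1.60 ± 0.085, SE), H2-Aa 2.65-fold lower (-1.40 ± 0.088) and H2-DMa 1.25-fold lower (-0.33 ± 0.052). The 3 comparisons share libraries, so these values stand side by side and are no separate evidence, and since the members were chosen with all 3 known, nothing is read from the count.

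**Figure D2:**
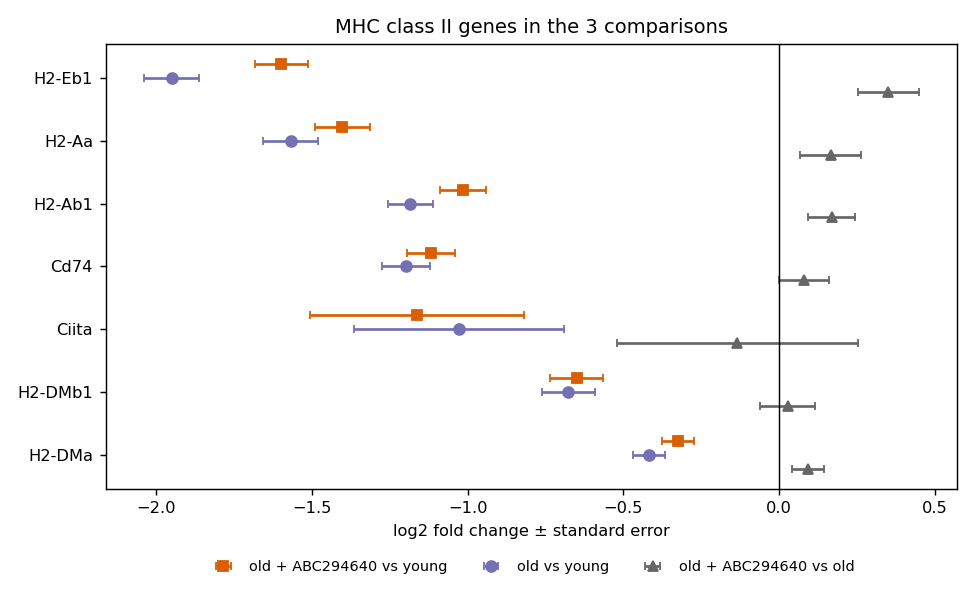
Log2 fold change with its standard error for each of the 7 genes (rows) in treated old against young HSCs (squares), old against young HSCs (circles) and treated against untreated old HSCs (triangles). Both comparisons with young HSCs lie below 0 for all 7 genes, down to -1.95 for H2-Eb1, and the treated against untreated values lie between -0.13 and 0.35.

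Of the members 5 lie in the class II region of chromosome 17, where genes of class I peptide supply are interleaved with them. Between the annotated starts of H2-DMa and H2-Eb1, a span of 186.3 kb, 12 genes in the table have their start, and all 12 were tested. Of the 7 that are no members, 5 were lower in old than in young HSCs, none was higher, and 2 did not pass the threshold. Over all tested genes 19.8% were lower and 19.6% higher. The region was looked at because the members lie in it.

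Psmb9, a catalytic subunit of the immunoproteasome, averaged 159.8 ± 5.91 CPM in treated old, 158.6 ± 6.52 CPM in old and 255.5 ± 8.48 CPM in young HSCs (SD, n = 3 each). Its log2 fold change in old against young HSCs was -0.69 ± 0.048 (SE, adjusted p = 3.87e-10, edgeR's quasi-likelihood test). Tap1 and Tap2 encode the subunits of the transporter that brings peptides to class I molecules. Tap1 fell in old against young HSCs, with a log2 fold change of -0.79 ± 0.083 (adjusted p = 2.17e-07, edgeR), and Tap2 likewise with -0.60 ± 0.11 (adjusted p = 0.000151, edgeR). Psmb8, the immunoproteasome subunit beside Tap2, fell, with a log2 fold change of -0.48 ± 0.052 (adjusted p = 2.75e-07, edgeR), at 651.4 CPM in old and 909.5 CPM in young HSCs. H2-DMb2, the copy of H2-DMb1, averaged 5.41 CPM in treated old, 5.56 CPM in old and 6.70 CPM in young HSCs and did not pass the threshold (adjusted p = 0.160, edgeR). Brd2, a bromodomain gene that overlaps H2-DMa on the other strand, averaged 97.3 CPM in treated old, 97.4 CPM in old and 93.9 CPM in young HSCs and did not pass it either (log2 fold change 0.05 ± 0.048, adjusted p = 0.415, edgeR). In treated against untreated old HSCs 0 of the 7 passed it with edgeR and 0 with DESeq2, and 1 at an unadjusted p under 0.05, beside 8.83% of all tested genes.

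**Figure D3:**
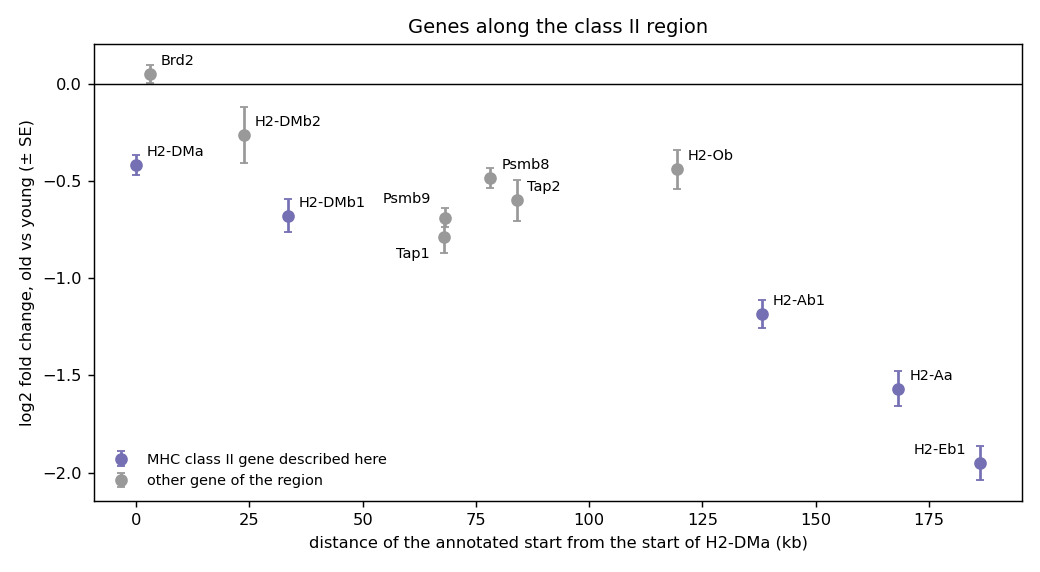
Log2 fold change in old against young HSCs, with its standard error, of the 12 genes tested in the class II region, by distance of their annotated start from that of H2-DMa in kb. The 5 members lie between -0.42 for H2-DMa and -1.95 for H2-Eb1 at the far end, and of the 7 other genes Brd2 alone lies above 0, at 0.05.

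The wider pathway was described with 5 lists of genes that are no members. Of 52 listed genes 48 were tested, and in old against young HSCs 13 were lower, 8 higher and 27 not past the threshold, with a median log2 fold change of -0.13. Over all tested genes 19.8% were lower and 19.6% higher, with a median of -0.03. These shares stand beside the old against young count of every list below. In treated against untreated old HSCs none of the 48 passed the threshold with edgeR or with DESeq2, and 2 did at an unadjusted p under 0.05, beside 8.83% of all tested genes.

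Among the other class II genes, 2 of 4 tested were lower in old than in young HSCs and none was higher. Those 2, H2-Oa and H2-Ob, encode the H2-DO dimer, a brake on H2-DM. H2-Oa averaged 12.3 ± 0.732 CPM in treated old, 9.99 ± 1.47 CPM in old and 14.7 ± 0.284 CPM in young HSCs (SD, n = 3 each), a log2 fold change of -0.56 ± 0.11 in old against young (SE, adjusted p = 0.00028, edgeR's quasi-likelihood test). H2-Ob averaged 13.5 ± 1.65 CPM in treated old, 12.9 ± 1.00 CPM in old and 17.4 ± 1.11 CPM in young HSCs (log2 fold change -0.44 ± 0.10, adjusted p = 0.00171, edgeR). H2-Eb2 averaged 1.62 CPM in treated old, 1.70 CPM in old and 1.87 CPM in young HSCs and did not pass the threshold, with a log2 fold change of -0.12 ± 0.26 (SE) in old against young HSCs. H2-Ea, the alpha chain that pairs with H2-Eb1, had 0, 0 and 0 counts in treated old, 0, 1 and 1 in old and 0, 3 and 1 in young libraries and was not tested.

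The peptide-processing list was split, with 4 genes higher, 3 lower and a median of 0.01 over 9 tested. Ctss, the protease that trims the invariant chain in antigen-presenting cells, averaged 22.98 ± 1.38 CPM in treated old, 22.4 ± 2.10 CPM in old and 47.0 ± 1.87 CPM in young HSCs (SD, n = 3 each). It fell, with a log2 fold change of -1.06 ± 0.075 in old against young HSCs (SE, adjusted p = 5.16e-10, edgeR), and all old libraries lay below all young ones. Ifi30, a thiol reductase of antigen processing, fell as well, with a log2 fold change of -0.54 ± 0.074 (adjusted p = 7.33e-06, edgeR). The general lysosomal proteases Ctsb and Ctsd rose, with log2 fold changes of 0.34 ± 0.047 (adjusted p = 1.06e-05, edgeR) and 0.36 ± 0.058 (adjusted p = 5.26e-05, edgeR). Of the 31-base words of Ctsd 33.2% occur in other transcripts.

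Of 11 tested genes for promoter-bound factors and for cofactors that act with Ciita, 2 were higher and 1 lower in old than in young HSCs, with a median of -0.01. Rfxap, a subunit of the X box factor, averaged 11.4 CPM in treated old, 13.04 CPM in old and 9.86 CPM in young HSCs (log2 fold change 0.40 ± 0.10, adjusted p = 0.00444, edgeR). Nfyb, a subunit of the Y box factor, rose, with a log2 fold change of 0.19 ± 0.053 (adjusted p = 0.00855, edgeR). The acetyltransferase gene Kat2b fell, with a log2 fold change of -0.32 ± 0.11 (adjusted p = 0.0283, edgeR), a call kept in 9 of 15 other settings.

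Among 15 genes that signal to Ciita or regulate it, 3 were lower and 2 higher, with a median of -0.17. Irf8, an interferon-responsive transcription factor of the monocyte, dendritic and B cell lineages, averaged 47.6 ± 1.12 CPM in treated old, 47.4 ± 3.69 CPM in old and 120.4 ± 3.83 CPM in young HSCs (SD, n = 3 each). It fell, with a log2 fold change of -1.35 ± 0.057 in old against young HSCs (SE, adjusted p = 1.87e-13, edgeR), with all old libraries below all young ones. Ifngr1, a chain of the interferon gamma receptor, rose, with a log2 fold change of 0.35 ± 0.041 (adjusted p = 1.12e-06, edgeR). Spi1, the myeloid and B cell factor PU.1, rose, with a log2 fold change of 0.55 ± 0.050 (adjusted p = 2.32e-08, edgeR).

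Of 9 genes of surface turnover and co-stimulation, 4 were lower in old than in young HSCs and none higher, with a median of -0.59. The 4 were at low levels, with means in young HSCs from 1.85 CPM (Cd83) to 6.41 CPM (Cd40). Cd9 and Cd81, at 222.3 and 316.3 CPM in young HSCs, did not pass the threshold. Whether other genes at such low levels differed alike was not tested. The co-stimulatory receptor gene Cd40 averaged 3.30 CPM in treated old, 3.68 CPM in old and 6.41 CPM in young HSCs (log2 fold change -0.81 ± 0.16, adjusted p = 0.000344, edgeR). Cd86, a ligand of CD28, fell, with a log2 fold change of -0.82 ± 0.18 (adjusted p = 0.00113, edgeR), and Marchf1, the ubiquitin ligase that removes class II from the surface, fell, with a log2 fold change of -0.94 ± 0.19 (adjusted p = 0.000624, edgeR). Cd83, which opposes Marchf1, fell, with a log2 fold change of -0.83 ± 0.29 (adjusted p = 0.0262, edgeR), a call kept in 9 of 14 other settings.

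Of 19 tested genes of class I presentation, 14 were lower and 3 higher in old than in young HSCs, with a median log2 fold change of -0.43. Over all tested genes 19.8% were lower and 19.6% higher, with a median of -0.03. B2m, the light chain of class I, averaged 3641 ± 40.5 CPM in treated old, 3202 ± 146.0 CPM in old and 5724 ± 372.6 CPM in young HSCs (SD, n = 3 each). Its log2 fold change was -0.84 ± 0.044 in old against young HSCs (SE, adjusted p = 5.48e-12, edgeR) and 0.19 ± 0.044 in treated against untreated old HSCs (adjusted p = 0.0407, edgeR). The treated against untreated call was kept in 7 of 15 other settings, and the adjusted p reached 0.251 without treated old replicate 1. Psme2, a subunit of the proteasome activator, fell, with a log2 fold change of -0.51 ± 0.042 in old against young HSCs (adjusted p = 4.89e-09, edgeR), while the chaperone gene Canx rose, with a log2 fold change of 0.45 ± 0.042 (adjusted p = 3.78e-08, edgeR). Whether class II genes differed from class I genes in their change was not tested.

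**Figure D4:**
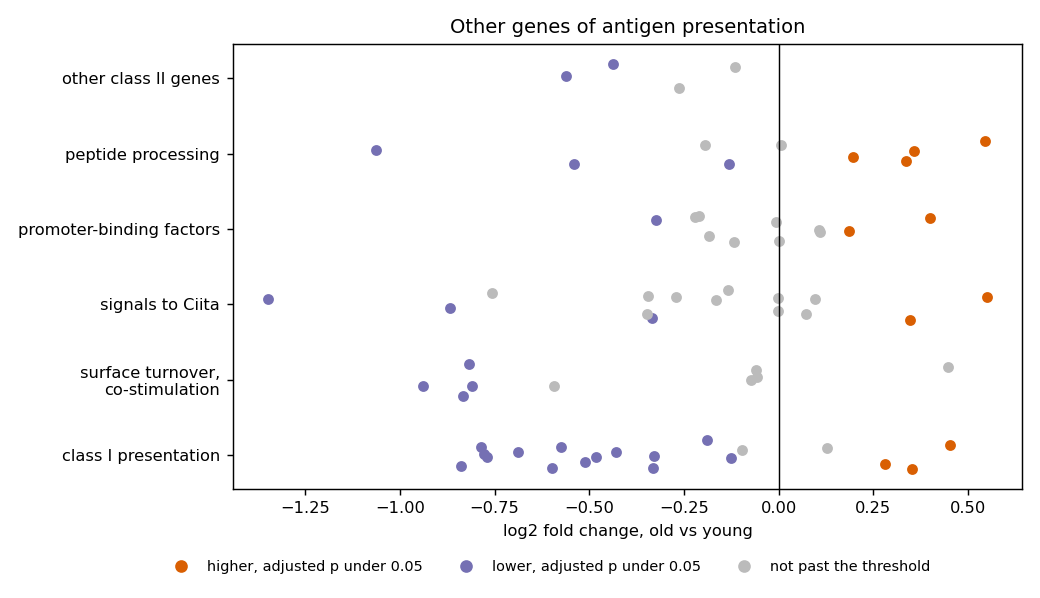
Log2 fold change in old against young HSCs of the tested genes that are no members, 1 point per gene and 1 row per list, coloured by whether the gene was higher, lower or not past an adjusted p of 0.05. The class I row and the surface row lie mostly below 0, with medians of -0.43 and -0.59. The row of promoter-binding factors, which also holds cofactors such as Kat2b, gathers around 0, with a median of -0.01.

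Markers of the classical class II cells moved with age in part, and their part in the class II difference was not tested. The old against young counts of each marker list stand beside 19.8% of all tested genes lower and 19.6% higher. Of 9 tested B cell markers 4 were lower in old than in young HSCs with edgeR and none higher, and 1 was called with DESeq2. The summed level of the list was 72.5 to 77.8 CPM in treated old, 69.8 to 76.4 CPM in old and 77.9 to 85.2 CPM in young libraries. Most of that sum was Cd79b, a B cell receptor subunit, at 63.4 CPM in treated old, 60.8 CPM in old and 65.1 CPM in young HSCs. Cd79a averaged 1.93 CPM in treated old, 1.59 CPM in old and 1.05 CPM in young HSCs, with an adjusted p of 0.123 (edgeR).

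Of the conventional dendritic cell markers, 5 of 10 could be tested, with 1 higher and 1 lower, and the summed level was 48.2 to 53.2 CPM in treated old, 42.0 to 51.6 CPM in old and 43.8 to 46.1 CPM in young libraries. Most of that sum was Flt3, a receptor gene that progenitors also express and the 1 gene of the list that was higher, at 38.8 CPM in treated old, 35.5 CPM in old and 29.7 CPM in young HSCs. Itgax averaged 0.202 CPM in treated old, 0.213 CPM in old and 0.488 CPM in young HSCs and was not tested. Xcr1 averaged 3.36 CPM in treated old, 2.32 CPM in old and 3.64 CPM in young HSCs (adjusted p = 0.0212, edgeR, a call kept in 10 of 14 other settings). Zbtb46 averaged 1.99 CPM in treated old, 2.02 CPM in old and 3.02 CPM in young HSCs, with an adjusted p of 0.103 (edgeR). The plasmacytoid dendritic cell list held 3 lower and no higher genes of 6 tested, at 67.5 to 69.2 CPM in treated old, 65.6 to 72.0 CPM in old and 87.9 to 91.5 CPM in young libraries in sum. Siglech averaged 0.596 CPM in treated old, 1.26 CPM in old and 2.02 CPM in young HSCs, with an adjusted p of 0.0928 (edgeR). Cox6a2 averaged 2.58 CPM in treated old, 2.53 CPM in old and 3.35 CPM in young HSCs, with an adjusted p of 0.169 (edgeR). Ccr9 averaged 2.38 CPM in treated old, 2.56 CPM in old and 3.91 CPM in young HSCs (adjusted p = 0.0251, edgeR, a call kept in 11 of 14 other settings).

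Of 12 tested monocyte and macrophage markers, 7 were lower and 1 higher in old than in young HSCs. Their summed level was 1959.6 to 2029.8 CPM in treated old, 1895 to 2062 CPM in old and 2759 to 3016 CPM in young libraries, most of it Ly6c2. Csf1r, the receptor for macrophage colony-stimulating factor, averaged 10.7 ± 1.22 CPM in treated old, 9.73 ± 0.573 CPM in old and 15.8 ± 1.27 CPM in young HSCs (log2 fold change -0.70 ± 0.10, adjusted p = 2.04e-05, edgeR). The complement gene C1qa averaged 1.92 CPM in treated old, 1.87 CPM in old and 4.77 CPM in young HSCs, a log2 fold change of -1.37 ± 0.25 (adjusted p = 0.000177, edgeR). Adgre1, which encodes F4/80, averaged 0.655 CPM in treated old, 0.848 CPM in old and 1.42 CPM in young HSCs, with an adjusted p of 0.102 (edgeR).

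The remaining lists went both ways. Of 5 plasma cell markers 2 were higher and none lower in old HSCs, at 62.8 to 65.9 CPM in treated old, 72.7 to 80.4 CPM in old and 36.5 to 38.6 CPM in young libraries in sum. Jchain, the joining chain of secreted antibodies, averaged 55.6 CPM in treated old, 67.5 CPM in old and 30.1 CPM in young HSCs. It was lower in treated than in untreated old HSCs, with a log2 fold change of -0.28 ± 0.058 (adjusted p = 0.0164, edgeR, a call kept in 11 of 15 other settings). Mzb1, a chaperone of antibody assembly, averaged 3.25 CPM in treated old, 3.03 CPM in old and 0.877 CPM in young HSCs (adjusted p = 6.79e-06, edgeR), and Sdc1 did not pass the threshold at 0.841, 1.02 and 1.45 CPM in the same 3 groups. Of 5 T and NK cell genes 2 were higher and none lower, at 1904 to 2073 CPM in treated old, 1739 to 1898 CPM in old and 1331 to 1486 CPM in young libraries in sum. Nearly all of that sum was Nkg7, a granule gene, at 1976 CPM in treated old, 1825 CPM in old and 1381 CPM in young HSCs, while Cd3e of the T cell receptor complex averaged 0.0570 CPM in treated old, 0.0356 CPM in old and 0.0455 CPM in young HSCs. Cd3d averaged 4.42 CPM in treated old, 4.37 CPM in old and 5.53 CPM in young HSCs (adjusted p = 0.0853, edgeR), and Cd3g was not tested at 0.0763, 0.0800 and 0.347 CPM in the same 3 groups.

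Of 7 endothelial and stromal genes 3 were lower and none higher, at 43.4 to 45.2 CPM in treated old, 38.9 to 44.8 CPM in old and 48.8 to 57.8 CPM in young libraries in sum. Kdr, a receptor for vascular endothelial growth factor, averaged 1.75 CPM in treated old, 1.18 CPM in old and 2.47 CPM in young HSCs (adjusted p = 0.00743, edgeR). Pecam1 averaged 28.6 CPM in treated old, 29.0 CPM in old and 33.5 CPM in young HSCs (adjusted p = 0.0511, edgeR), and Cdh5, at 0.0171, 0.1001 and 0.0915 CPM in the same 3 groups, was not tested. The HSC and progenitor list held 8 lower and 2 higher of 14, at 572.3 to 578.4 CPM in treated old, 561.1 to 568.9 CPM in old and 668.0 to 680.6 CPM in young libraries. Within it Ly6a, which encodes the stem cell antigen Sca-1, averaged 48.6 CPM in treated old, 49.1 CPM in old and 86.7 CPM in young HSCs (log2 fold change -0.82 ± 0.063, adjusted p = 1.68e-09, edgeR). Procr, which marks HSCs, averaged 3.19 CPM in treated old, 2.54 CPM in old and 3.89 CPM in young HSCs (adjusted p = 0.00928, edgeR). No marker found in the table was at 0 in every library.

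**Figure D5:**
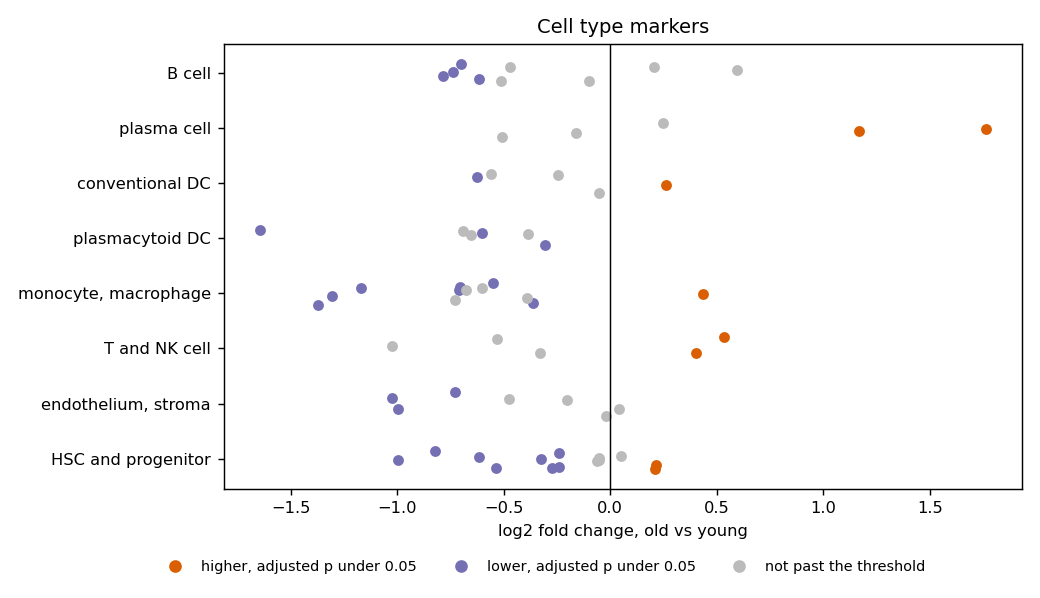
Log2 fold change in old against young HSCs of the tested marker genes, 1 point per gene and 1 row per cell type, coloured by whether the gene was higher, lower or not past an adjusted p of 0.05. The monocyte and macrophage row has 7 of 12 genes lower, and the plasma cell row has 2 of 5 higher. Over all tested genes 19.8% were lower and 19.6% higher.

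The genes whose pattern over the 9 libraries was most like the mean of H2-Aa, H2-Ab1, H2-Eb1 and Cd74 were found by root mean square distance between centred log2(CPM + 1) values, among 7968 genes. They were Zbp1 (distance 0.0489), Irf8 (0.110), Ly86 (0.115), H2-T10 (0.127), Rtp4 (0.1275) and Tpm3-rs7 (0.132), beside 0.101 for H2-Aa and 0.196 for H2-Eb1 themselves. Zbp1, an interferon-induced sensor of nucleic acids, averaged 10.7 ± 0.570 CPM in treated old, 8.80 ± 0.985 CPM in old and 27.1 ± 0.919 CPM in young HSCs (SD, n = 3 each). Ly86, which encodes the partner protein MD-1 of the B cell and myeloid receptor RP105, averaged 34.2 CPM in treated old, 32.6 CPM in old and 86.2 CPM in young HSCs. Rtp4 averaged 29.6 CPM in treated old, 27.8 CPM in old and 72.1 CPM in young HSCs. Of the 31-base words of H2-T10 64.2% occur in other transcripts, and 78.6% for Tpm3-rs7, which leaves both counts uncertain. The genes nearest to Ciita by this distance were Trps1 (0.113), Bltp1 (0.123) and Rab27b (0.123). Ciita measured 0.522 to 2.35 CPM, and at such levels the added 1 shrinks differences on the log2(CPM + 1) scale. In old against young HSCs the log2 fold change was -0.75 for Trps1, -0.56 for Bltp1 and -0.56 for Rab27b, against -1.03 for Ciita. Nearness to Ciita by this distance is therefore no match in the size of the change. The libraries share their groups and depth, so a small distance is a description.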

How the data were processed

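The members and all gene lists were chosen with earlier results of these data known. The deposited table holds an expected count per gene and library, as deposited by the authors, and 56.0% of its non-zero values are whole. The sources used here do not give the step that made fractions. The submitters' processing notes list edgeR 3.24.3, HTSeq 0.10.0, STAR 2.6.1d, Trim Galore 0.6.2 and build mm10, with no role or order. The labels mention no molecular identifiers, so counting error is a lower limit on technical error.

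Counts were rounded and fitted in 1 model by group over all 9 libraries (edgeR 4.0.16, R 4.3.3, TMM, default filter by group, quasi-likelihood test, Benjamini-Hochberg over 14227 genes, threshold 0.05). The fit was also run on simulated counts in which far fewer genes changed than were called in old against young HSCs. That run does not vouch for calls in these data. The common biological coefficient of variation was 0.0583. CPM are from TMM-scaled library sizes. Exon lengths, positions and overlaps are from GENCODE release M21 (GRCm38), in which all 23317 identifiers were found. Alternatives were DESeq2 1.42.0, RLE size factors, a stricter filter (5 CPM in 3 libraries) or none, the compared groups alone, a replicate block and leaving out each library. They were run for the named genes that are no members after the data were seen. Python 3.11.15, numpy 2.4.6 and pandas 2.3.3 did the rest.

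Named genes were all members, all genes of the class II region, all other class II genes, up to 4 called genes of smallest p of each pathway list (up to 2 in treated against untreated old HSCs), the first 3 of each marker list and the nearest genes by profile. Some results that this rule names are not reported here. Ly6c2, Flt3 and Nkg7 were named for their share of a list's sum, Rfx5 for its promoter and Ddx3y for the check of sex, after their values were seen.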

Additional observations from a re-analysis of the deposited data

How the results depend on the processing

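The count of genes called in treated against untreated old HSCs, 170, moved to 333 without the filter and to 260 with those groups alone. It ran from 48 (without treated old replicate 2) to 286 (without young replicate 1) when 1 library was left out, and was 69 without treated old replicate 1, 77 without old replicate 2 and 91 without old replicate 1. The share of higher genes among these calls was 64.1%, but 35.4% without treated old replicate 2, 44.9% without treated old replicate 1 and 51.9% without old replicate 2. The count of members called in that comparison was 0, but 1 (H2-Eb1) without the filter, and ran from 0 to 1 over the libraries left out. The cause of these shifts was not tested. Whether the replicate numbers pair the libraries was left undecided. Same-numbered young and old libraries had correlations of deviations of 0.127, 0.183 and 0.0776. Differently numbered young and old libraries had -0.168 to 0.0483. Same-numbered pairs with a treated old library had -0.155 to 0.00628. With the number as a block 5582 genes were called in old against young and 195 in treated against untreated old HSCs. In treated old against young HSCs it was 5355, and the same 7, 0 and 7 members were called. The 6 members other than Ciita kept their calls against young HSCs in all 15 other settings, and no called log2 fold change of the members or of the other named genes recomputed changed sign. Ciita, with 9 to 51 counts a library, limits what depth allows, and it was not tested under the stricter filter.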
